A study of Mus musculus with 36 samples.

Results

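Osteoclasts grown from mouse bone marrow cells and labelled as Irf8 cKO were compared with osteoclasts labelled Irf8 cWT after 6 days of culture. Both groups were C57BL/6 cells cultured up to day 6 with M-CSF at 20 ng/ml and RANKL at 40 ng/ml, and each group had 3 of the 36 RNA-seq libraries of the series. The same genotypes were also sequenced on day 0, before RANKL, and on day 3, beside a second pair of genotypes, gKO and gWT. The labels do not spell out the prefixes c and g, the deleted part of Irf8 or the driver of any Cre. Nothing states that replicates were different mice or culture wells, and the p-values below therefore cover only the spread among these libraries, which may be technical. Expression is given in RPKM, which scales reads to the length of the gene model and to the size of the library. Of 24950 listed genes, the 10812 that reached 1 RPKM in 3 or more of the 6 libraries were tested.

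Osteoclasts are multinucleated cells that resorb bone. They form by fusion of macrophage-lineage precursors under M-CSF, which keeps the precursors alive, and RANKL, which acts through its receptor RANK and the transcription factor NFATc1. IRF8 is a transcription factor of the interferon regulatory factor family that drives monocyte and macrophage genes, binds DNA with partners such as PU.1, and is known to restrain osteoclast formation. Interferons, whose target genes carry the DNA elements read by this family, also restrain osteoclast formation.

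The labels were checked first with the targeted gene. Irf8 had 12.3, 7.69 and 13.6 RPKM in the 3 libraries labelled cKO, against 24.6, 26.1 and 28.3 RPKM in those labelled cWT. It was therefore lower in cKO at day 6, by 1.2 ± 0.17 (log2(RPKM + 1) scale, limma standard error, n = 3 each, adjusted p = 0.00141 by limma with Benjamini-Hochberg adjustment over all tested genes). On the earlier days the order was the other way round: Irf8 averaged 210 RPKM in cKO and 59.0 RPKM in cWT at day 0, and 65.4 RPKM in cKO and 6.42 RPKM in cWT at day 3. A header line of the deposited workbook states a correction of the annotation for cKO and cWT at day 6. RPKM covers the whole gene model and the deleted part of Irf8 is not stated, so the level of Irf8 cannot by itself check a knockout label. The groups are therefore called the libraries labelled cKO and the libraries labelled cWT. The size of each difference is given with the direction the deposited labels give it, and whether the labels are exchanged on any day was not tested.

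The library names on the deposited sample sheet begin with s, t or u, and the header, which names 3 combined data sets, does not tie them to these letters. At day 6 all 3 libraries labelled cKO and replicate 3 of cWT begin with s, while replicates 1 and 2 of cWT begin with t. The sample sheet gives 64938834 to 92548145 alignments for the libraries labelled cKO and 35233080 to 75779828 for those labelled cWT. Across genes, libraries correlated at r = 0.9912 to 0.995 within cKO, 0.9942 to 0.9971 within cWT and 0.973 to 0.9804 between them, on the log2(RPKM + 1) scale. The median SD over 3 libraries was 0.105 in cKO and 0.078 in cWT on that scale. The Y-linked genes Eif2s3y, Kdm5d and Uty were at 0 in all 6 libraries, and Xist had 23.7 to 43.0 RPKM in cKO and 29.6 to 44.0 RPKM in cWT.

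The promoters below belong to genes the results turn on: 4 interferon-induced genes that were higher in the libraries labelled cKO, and 2 of the 3 C1q genes, which were among the largest rises. Each is the stretch of 250 bases before the transcription start in RefSeq on GRCm38.p6, written in the direction of the gene. They lie at chr4:156200819-156201068 (minus strand, Isg15), chr19:34583279-34583528 (plus strand, Ifit3), chr5:120777660-120777909 (minus strand, Oas3), chr5:120887614-120887863 (minus strand, Oas1g), chr4:136886201-136886450 (minus strand, C1qb) and chr4:136892915-136893164 (minus strand, C1qc). Capitals mark GAAA followed after 2 bases of any kind by GAAA, the core of the element bound by interferon regulatory factors, or, in C1qc, GAGGAAGT, a core bound by PU.1. Both strands were searched, and neighbouring matches can overlap. Irf7 and Oasl2, interferon-induced genes with larger rises, held no match to the first of these in their windows and are not printed.
Isg15: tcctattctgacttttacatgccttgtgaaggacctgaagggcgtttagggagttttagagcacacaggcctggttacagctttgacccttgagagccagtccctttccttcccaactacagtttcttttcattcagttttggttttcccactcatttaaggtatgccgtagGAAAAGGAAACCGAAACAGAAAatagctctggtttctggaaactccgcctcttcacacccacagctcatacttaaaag
Ifit3: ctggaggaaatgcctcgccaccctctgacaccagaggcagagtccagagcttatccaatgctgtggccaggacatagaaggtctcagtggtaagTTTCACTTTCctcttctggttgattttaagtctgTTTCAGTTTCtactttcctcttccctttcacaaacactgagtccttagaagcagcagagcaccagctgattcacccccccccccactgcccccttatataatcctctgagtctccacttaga
Oas3: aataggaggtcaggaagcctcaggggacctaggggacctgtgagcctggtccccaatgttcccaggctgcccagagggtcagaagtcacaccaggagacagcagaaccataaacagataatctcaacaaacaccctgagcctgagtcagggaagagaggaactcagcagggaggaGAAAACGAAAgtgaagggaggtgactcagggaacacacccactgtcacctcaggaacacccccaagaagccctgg
Oas1g: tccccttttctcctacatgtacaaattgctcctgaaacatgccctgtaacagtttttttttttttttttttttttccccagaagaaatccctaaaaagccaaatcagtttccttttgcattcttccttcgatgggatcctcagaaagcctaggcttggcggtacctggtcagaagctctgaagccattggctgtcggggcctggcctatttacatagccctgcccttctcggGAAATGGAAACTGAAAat
C1qb: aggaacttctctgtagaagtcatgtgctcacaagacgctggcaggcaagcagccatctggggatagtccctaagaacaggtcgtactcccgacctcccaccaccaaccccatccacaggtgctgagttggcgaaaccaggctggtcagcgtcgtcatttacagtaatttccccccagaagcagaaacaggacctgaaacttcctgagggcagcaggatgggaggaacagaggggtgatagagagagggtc
C1qc: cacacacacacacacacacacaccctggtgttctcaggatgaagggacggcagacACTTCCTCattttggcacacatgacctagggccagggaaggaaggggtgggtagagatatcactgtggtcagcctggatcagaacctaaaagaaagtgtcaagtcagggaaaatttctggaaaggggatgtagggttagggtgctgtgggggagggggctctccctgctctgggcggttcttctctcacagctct
In Isg15, 3 overlapping matches to this element run from -78 to -57, counted from the transcription start. Ifit3 has a match on the opposite strand at -156 to -147 and another at -122 to -113. Oas3 has 1 match at -75 to -66, and Oas1g has 2 overlapping matches at -18 to -9 and -12 to -3. C1qb holds none of the searched motifs in this window, and the C1qc match lies on the opposite strand at -195 to -188.

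The change between the groups was broad, and most calls were in 1 direction. Of the 10812 tested genes, 907 (8.39%) were higher and 2980 (27.6%) were lower in the libraries labelled cKO at an adjusted p under 0.05 (limma). A change of at least 2-fold on the log2(RPKM + 1) scale was reached by 70 of the higher genes (0.647% of those tested) and 195 of the lower genes (1.80%). The 3 libraries of cKO lay wholly above those of cWT for 1345 genes (12.4%) and wholly below for 4082 genes (37.8%), so 50.2% did not overlap. The median change of all genes was -0.114 (log2), so the values as deposited are not centred. After quantile scaling the median was 0.007, and 1722 genes were higher (15.9%) and 1584 lower (14.7%), so higher genes made up 52.1% of the calls, against 23.3% as deposited. Both scalings called 894 of the 907 higher genes and 1519 of the 2980 lower genes in the same direction. Leaving out replicate 1 of cWT gave 562 higher and 1912 lower genes, and leaving out replicate 2 of cWT gave 532 higher and 1828 lower.

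**Figure D1:**
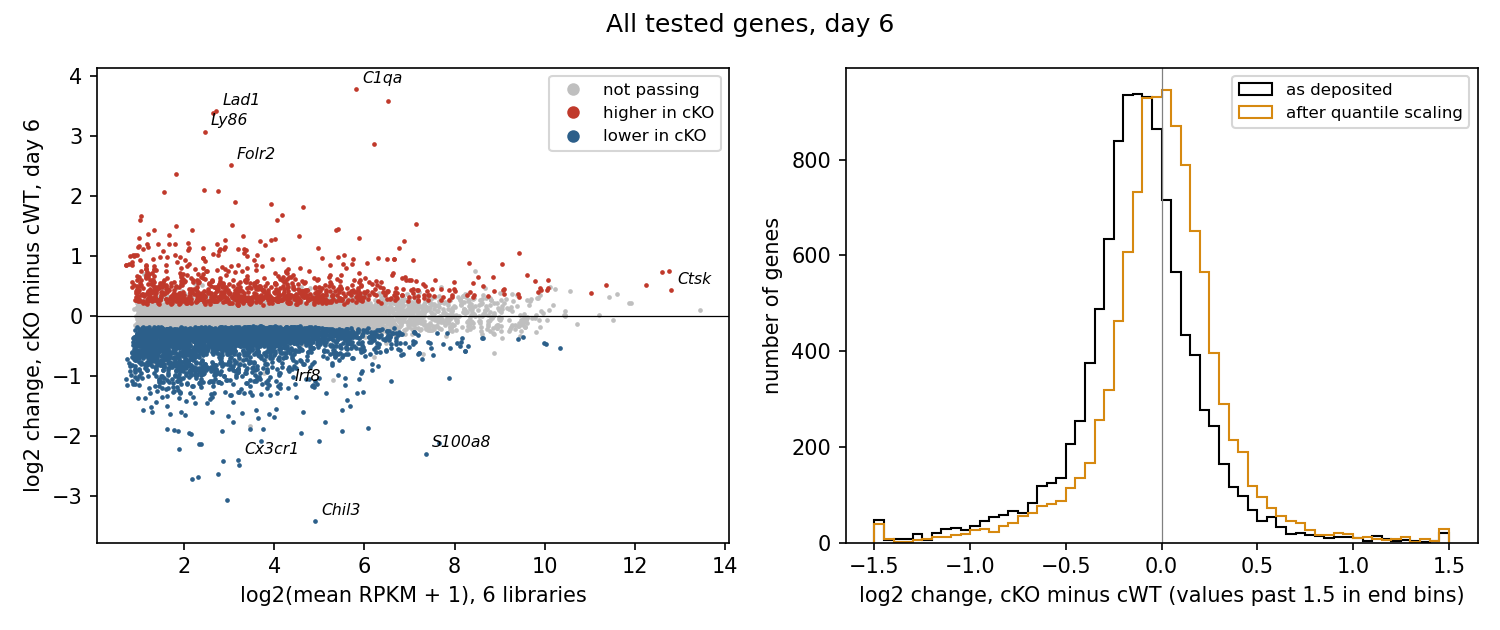
Left: log2 change (cKO minus cWT, log2(RPKM + 1) scale) of each of 10812 tested genes against its level, with genes passing limma's test in colour. Right: number of genes by log2 change as deposited (median -0.114) and after quantile scaling (median 0.007); C1qa and Chil3 stand at the 2 ends of the left panel.

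The library letter runs partly along the groups, and the fit was repeated with the letter as a term. It called 338 genes higher and 1159 lower, of which 334 and 1141 had been called in the same direction without the term. Only replicate 3 of cWT separates letter from group. The change fitted with the term therefore rests on that 1 library of cWT set against the 3 of cKO. Among those 4 libraries alone 231 genes were called higher and 891 lower, with the spread estimated from the libraries labelled cKO and the lone library of cWT assumed to vary like them.

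C1qa, C1qb and C1qc, which encode the 3 chains of complement C1q made by macrophages, were higher in the libraries labelled cKO. C1qa had 115, 74.1 and 123 RPKM in the libraries labelled cKO, against 4.93, 6.17 and 9.0 RPKM in those labelled cWT. Every cKO library was far above every cWT library, and the change was 3.77 ± 0.23 (log2, adjusted p = 2.2e-05 by limma). C1qb had 179, 126 and 204 RPKM in cKO, against 11, 12.8 and 15.7 RPKM in cWT (change 3.57 ± 0.18). C1qc had 136, 90.8 and 165 RPKM in cKO, against 14.8, 15.5 and 19.7 RPKM in cWT (change 2.87 ± 0.20). In all 3 genes the lowest cKO value was replicate 2 and the highest cWT value was replicate 3, without overlap between the groups. In the authors' deposited table the ratios of cKO to cWT, taken between geometric means, are 15.4 for C1qa, 12.7 for C1qb and 7.63 for C1qc.

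Ly86, which encodes MD-1, the partner of the Toll-like receptor homologue RP105, was close to off in 1 group. It had 9.18, 6.95 and 10.3 RPKM in cKO and 0.174, 0.115 and 0.198 RPKM in cWT, a change of 3.06 ± 0.12 (log2, adjusted p = 4.14e-06 by limma). Lad1, which encodes the keratin-associated protein ladinin, behaved alike, with 11.1, 11.1 and 10.9 RPKM in cKO and 0.16, 0.111 and 0.137 RPKM in cWT (change 3.40 ± 0.06, adjusted p = 7.03e-08 by limma). The spread of Lad1 within each group was small beside the gap.

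Among the other large rises, Folr2, the folate receptor beta of tissue macrophages, had 13.6, 10.3 and 15 RPKM in cKO and 1.30, 1.40 and 1.57 RPKM in cWT (change 2.51 ± 0.12). Igf1, a growth factor, averaged 7.89 ± 1.78 RPKM in cKO and 1.05 ± 0.04 RPKM in cWT (SD, n = 3 each). Npl, a lyase of sialic acid breakdown, averaged 9.84 ± 1.03 RPKM in cKO and 1.58 ± 0.20 RPKM in cWT. Pmp22, a membrane protein best known from myelin, averaged 37.7 ± 4.95 RPKM in cKO and 9.93 ± 0.39 RPKM in cWT. The ranking of rises required groups without overlap, which 50.2% of all tested genes had. Steap4, a metalloreductase that acts on iron, rose by 1.44 ± 0.08 (log2), Wfdc17 by 1.86 ± 0.11, Lyplal1 by 1.43 ± 0.07 and Ly6a by 1.33 ± 0.10. All came from the ranking that required an SD under 0.25 within both groups.

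Chil3, which encodes the chitinase-like protein Ym1 of macrophages and neutrophils, had the largest fall of all tested genes that averaged 5 RPKM or more in cWT. It had 3.69, 5.19 and 3.54 RPKM in cKO, against 51.2, 60.6 and 49.5 RPKM in cWT, a change of -3.42 ± 0.13 (log2, adjusted p = 3.04e-06 by limma). Cx3cr1, the fractalkine receptor of monocytes, had 1.88, 1.82 and 2.05 RPKM in cKO, against 14.3, 15 and 14.2 RPKM in cWT (change -2.41 ± 0.06). Both groups were tight and far apart. F13a1, the A chain of coagulation factor XIII found in monocytes, averaged 1.85 ± 0.52 RPKM in cKO and 14.8 ± 1.10 RPKM in cWT (SD, n = 3 each). Hp, which encodes haptoglobin, averaged 1.29 ± 0.40 RPKM in cKO and 11.2 ± 0.57 RPKM in cWT. Penk, the precursor of enkephalins, averaged 0.916 ± 0.136 RPKM in cKO and 7.45 ± 0.509 RPKM in cWT.

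Among the falls were also 2 genes with near-identical relatives, for which the assignment of reads is uncertain. H2-Q2, a class I MHC gene of the Q region, had 0.286, 0.353 and 0.239 RPKM in cKO and 4.15, 4.57 and 6.53 RPKM in cWT. Hist2h2ac, a histone H2A gene, had 0.216, 0.381 and 0.363 RPKM in cKO and 6.94, 6.88 and 8.80 RPKM in cWT. The ranking of falls required groups without overlap.

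**Figure D2:**
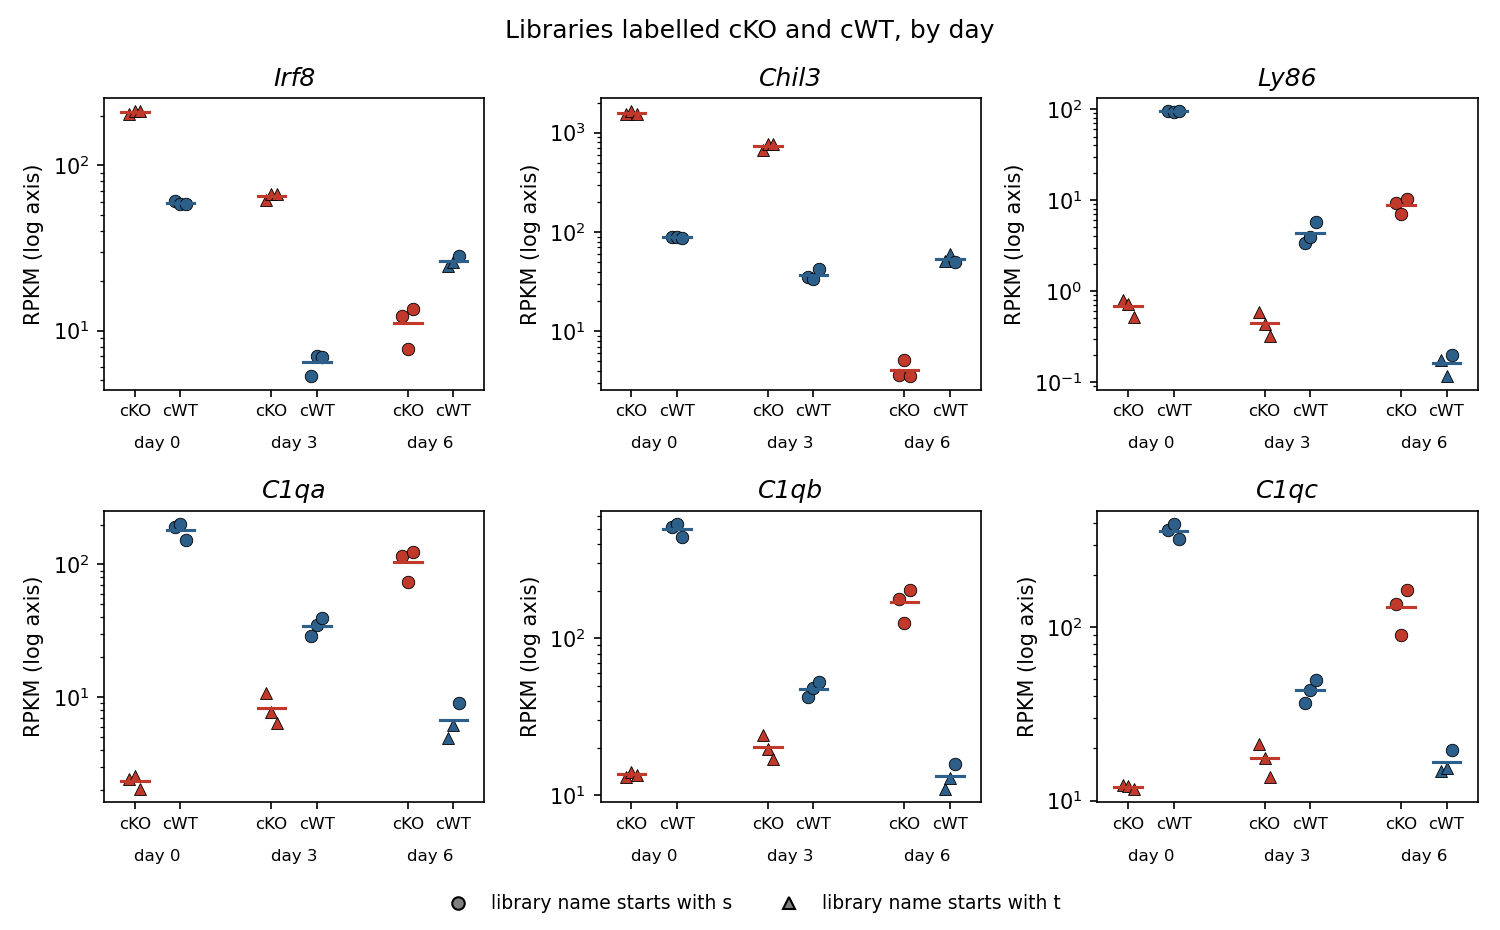
RPKM of Irf8, Chil3, Ly86, C1qa, C1qb and C1qc (log axis) in each library labelled cKO (red) and cWT (blue) on days 0, 3 and 6; bars are means of 3 libraries, and circles and triangles mark library names that start with s and t. In each of the 6 genes the order of cKO and cWT at day 6 is the reverse of that on days 0 and 3, and replicate 3 of cWT at day 6 (a circle) lies with the other libraries labelled cWT.

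Genes that carry out bone resorption were mainly higher in the libraries labelled cKO, on the values as deposited. Of 16 tested genes of osteoclast resorption, 11 were higher, 1 was lower and 4 did not pass the test, with a median change of 0.313 (log2), beside -0.114 over all genes. Acp5, the tartrate-resistant acid phosphatase, had 8264, 8631 and 8955 RPKM in cKO, against 4884, 4949 and 5699 RPKM in cWT (change 0.74 ± 0.13). Mmp9, a matrix metalloproteinase, averaged 7657 ± 385 RPKM in cKO and 4635 ± 188 RPKM in cWT (SD, n = 3 each). Ctsk, the protease cathepsin K that digests bone collagen, had 7782, 8310 and 8208 RPKM in cKO and 5649, 5921 and 6530 RPKM in cWT (change 0.43 ± 0.13, adjusted p = 0.0326 by limma). The groups did not overlap for Acp5, Mmp9 or Ctsk. Calcr, the calcitonin receptor, averaged 51.6 ± 4.18 RPKM in cKO and 34.2 ± 0.61 RPKM in cWT, and Clcn7, the chloride and proton exchanger of the resorbing membrane, 226 ± 14.8 RPKM in cKO and 149 ± 2.20 RPKM in cWT. Car2, the carbonic anhydrase that supplies protons, was the gene that fell, with 117, 146 and 124 RPKM in cKO and 149, 161 and 175 RPKM in cWT (change -0.32 ± 0.11, adjusted p = 0.0487 by limma). It did not pass without replicate 1 or 3 of cKO or without any 1 library of cWT (adjusted p = 0.067 to 0.138 by limma).

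Scaling bears on these abundant genes. After quantile scaling the change of Acp5 was 0.15 (adjusted p = 0.05 by limma), that of Mmp9 was 0.05, and that of Ctsk turned to -0.19 (adjusted p = 0.037 by limma), so 5 members were higher and 2 lower. With the letter as a term 2 members were called higher, and Acp5 (adjusted p = 0.0728 by limma), Mmp9 (0.0544), Ctsk (0.294) and Car2 (0.101) were not called. Without replicate 3 of cKO 6 members were higher, and without replicate 1 or 2 of cWT 5 were. Ctsk lost its call without replicate 2 or 3 of cKO or replicate 1 or 2 of cWT, with an adjusted p of 0.0557 to 0.147 by limma.

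Of 18 tested genes of cell fusion and costimulation, 4 were higher, 4 lower and 10 did not pass, with a median of 0.054 (log2), beside 8.39% higher and 27.6% lower of all tested genes. They numbered 1 higher and 2 lower without replicate 1 or 2 of cWT and with the letter as a term, 2 and 4 without replicate 2 of cKO, and 2 and 3 without replicate 3 of cKO. Oscar, the osteoclast-associated immunoglobulin-like receptor, had 129, 133 and 131 RPKM in cKO, against 64.6, 66.5 and 72.0 RPKM in cWT (change 0.94 ± 0.07, adjusted p = 7.91e-05 by limma). Its groups were narrow and did not overlap. Cd81, a tetraspanin, averaged 22.5 ± 3.39 RPKM in cKO and 33.2 ± 4.08 RPKM in cWT (SD, n = 3 each; change -0.54 ± 0.12). Dcstamp, the fusion protein of osteoclasts, did not pass, with 440, 511 and 427 RPKM in cKO and 354, 382 and 382 RPKM in cWT (adjusted p = 0.0553 by limma). Its groups did not overlap, and it was called higher in 5 alternative fits (adjusted p = 0.00903 to 0.0415 by limma), those with 12 libraries, 36 libraries, library weights, median centring and the replicate block.

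Of 21 tested receptors and kinases that carry the RANK and M-CSF signals 1 was higher, 6 were lower and 14 did not pass, a share of lower genes near the 27.6% of all tested genes; after quantile scaling 4 were higher and 3 lower, and without replicate 3 of cKO or replicate 1 or 2 of cWT 3 were lower. Tnfrsf11a, which encodes RANK, had 32.4, 29.8 and 29.2 RPKM in cKO and 33.6, 33.6 and 32.3 RPKM in cWT, and did not pass. Map3k14, the kinase NIK of the non-canonical NF-κB pathway, averaged 3.45 ± 0.22 RPKM in cKO and 5.25 ± 0.05 RPKM in cWT (SD, n = 3 each; change -0.49 ± 0.07). Csf2rb, the common beta chain of the receptors for GM-CSF and interleukin-3, was the gene that rose, averaging 82.4 ± 4.51 RPKM in cKO and 63.8 ± 2.72 RPKM in cWT.

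Of 19 transcription factors and coactivators that promote osteoclast formation, 6 were lower and 13 did not pass, again near the 27.6% lower of all tested genes, with 4 lower without replicate 2 of cWT. Nfatc1, the master factor of osteoclasts, had 47.4, 45.7 and 42.4 RPKM in cKO and 59.4, 59.2 and 53.9 RPKM in cWT (change -0.34 ± 0.08, adjusted p = 0.00987 by limma; -0.20 and adjusted p = 0.0771 after median centring; 0.0544 without replicate 2 of cWT). Mitf, a factor that acts with it, averaged 11.9 ± 1.14 RPKM in cKO and 18.5 ± 0.62 RPKM in cWT, and Myc 13.1 ± 1.73 RPKM in cKO and 20.7 ± 1.11 RPKM in cWT (SD, n = 3 each). With the letter as a term Nfatc1 did not pass (adjusted p = 0.146 by limma), and 2 of the 19 were lower.

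Of 14 genes that restrain osteoclast formation, 6 were higher, 3 lower and 5 did not pass. These counts stand beside 8.39% higher and 27.6% lower of all tested genes. Irf8 itself was 1 of the 3 lower genes. Without replicate 3 of cKO or replicate 1 of cWT 4 were higher and 1 lower, and without replicate 2 of cKO 6 and 1. Without replicate 3 of cWT they numbered 6 and 2, and without replicate 2 of cWT 3 and 1. With the letter as a term 2 were higher and 1 lower. Irf7, an amplifier of the type I interferon response, had 28.2, 19.3 and 32.0 RPKM in cKO, against 6.58, 7.83 and 7.85 RPKM in cWT (change 1.68 ± 0.16, adjusted p = 0.000225 by limma). Id2, an inhibitor of basic helix-loop-helix factors, averaged 60.8 ± 12.2 RPKM in cKO and 34.1 ± 1.75 RPKM in cWT (SD, n = 3 each).

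The proton pump and lysosome formed 1 of the groups that moved 1 way. Of 35 tested genes 16 were higher, 0 were lower and 19 did not pass, with a median of 0.346 (log2), and after quantile scaling 19 were higher and 0 lower. With the letter as a term 6 were higher; 9 were without replicate 3 of cKO, and 8 without replicate 1 or 2 of cWT. Ctsh, the protease cathepsin H, had 23.1, 21.6 and 27.8 RPKM in cKO, against 7.63, 6.75 and 7.49 RPKM in cWT (change 1.59 ± 0.10). Lgmn, the protease legumain, averaged 149 ± 21.7 RPKM in cKO and 67.4 ± 2.03 RPKM in cWT, and Ctss, the protease cathepsin S that trims the class II MHC chaperone, averaged 684 ± 110 RPKM in cKO and 371 ± 10.3 RPKM in cWT (SD, n = 3 each). Hexa, a lysosomal hexosaminidase, averaged 956 ± 38.2 RPKM in cKO and 601 ± 46.4 RPKM in cWT.

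The interferon response was higher in the libraries labelled cKO. Of 47 tested genes 36 were higher, 2 were lower and 9 did not pass, with a median of 0.555 (log2), beside -0.114 over all genes. Oasl2, an oligoadenylate synthase-like protein, had 12.1, 9.33 and 12.9 RPKM in cKO, against 3.34, 3.27 and 3.42 RPKM in cWT (change 1.51 ± 0.11, adjusted p = 5.23e-05 by limma). Ifit3, an antiviral tetratricopeptide protein, had 6.04, 5.84 and 7.06 RPKM in cKO and 2.24, 2.23 and 2.62 RPKM in cWT (change 1.12 ± 0.09). Oas3, which makes the RNase L activator 2-5A, had 13.4, 10.9 and 13.8 RPKM in cKO and 5.63, 5.21 and 5.22 RPKM in cWT (change 1.10 ± 0.09). Isg15, a ubiquitin-like protein, had 12.5, 13.1 and 17.5 RPKM in cKO and 6.12, 6.84 and 8.10 RPKM in cWT (change 0.93 ± 0.13). None of these genes had overlapping groups. The 2 that fell were Xaf1, a pro-apoptotic protein (change -0.49), and Ifi207, one of a family of similar genes on which reads may be shared (change -0.30), which did not pass after quantile scaling (adjusted p = 0.158 by limma), with the letter as a term (change -0.09, adjusted p = 0.602 by limma), or without replicate 2 or 3 of cKO or 1 or 2 of cWT (adjusted p = 0.107 to 0.164). With the letter as a term 25 were higher and 1 lower, and leaving out 1 library gave 26 to 35 higher.

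In the promoter table, 36 of these 47 genes had an entry, with 44 promoters. GAAA and GAAA spaced by 2 bases, searched on both strands of 300 bases (250 before and 50 after the start), stood in 22 of the 44 (50%), against 3.44% of all 32851 promoters. Among promoters of all genes called higher the share was 6.72%, and among those called lower it was 2.95%. It was 3.14% among promoters of all tested genes. The genes called higher include those of the interferon list, which held 17 of the 60 promoters with this match. The related letters GGAA and GAAA with the same spacing, an element bound by an IRF with an Ets partner such as PU.1, stood in 18.18% of the interferon promoters and in 2.72% of all promoters. The matches printed above for Isg15, Ifit3, Oas3 and Oas1g are of the first kind. Irf7 and Oasl2, with larger changes (1.68 and 1.51), had promoter entries with neither kind. Among list members called higher, 17 of 31 promoters held the first kind. Oas1g and Ifit3 have near-identical neighbours, Oas1a and Ifit3b, so their RPKM may hold reads of these; all 4 genes were higher.

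The guanylate-binding proteins and immunity GTPases, another set of interferon-induced genes, had 5 of 8 tested members higher, 1 lower and 2 not passing. With the letter as a term 2 were higher and 1 lower. Their counts and those of the MHC lists below stand beside 8.39% higher and 27.6% lower of all tested genes. Of 9 tested class II MHC genes, 4 were higher, 1 lower and 4 did not pass, and with the letter as a term 2 were higher and 1 lower. H2-Eb1, a class II beta chain, had 56.9, 46.6 and 74.7 RPKM in cKO, against 18.4, 21.6 and 23.4 RPKM in cWT (change 1.43 ± 0.16). Cd74, the invariant chain, averaged 412 ± 64.8 RPKM in cKO and 223 ± 18.2 RPKM in cWT (SD, n = 3 each). Of 19 tested class I genes, 8 were higher, 4 lower and 7 did not pass, with 5 higher and 4 lower without replicate 3 of cKO, 4 and 4 without replicate 1 of cWT, 4 and 3 without replicate 2 of cWT, and 4 and 3 with the letter as a term. H2-T23 averaged 82.7 ± 9.12 RPKM in cKO and 33.1 ± 3.56 RPKM in cWT, while H2-Q4 averaged 19.7 ± 3.81 RPKM in cKO and 49.0 ± 6.12 RPKM in cWT; genes of this family resemble each other, so their single values are uncertain.

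Genes of macrophage identity changed in both directions, with more higher than lower. List counts in this paragraph stand beside 8.39% higher and 27.6% lower of all tested genes. Of 33 macrophage identity genes tested, 12 were higher, 5 lower and 16 did not pass, with a median of 0.215 (log2). Without replicate 2 of cKO 19 were higher and 5 lower, and with the letter as a term 7 were higher and 4 lower. Beside Folr2, the fold was large for Fcgr4, an activating IgG receptor, with 5.44, 5.17 and 7.69 RPKM in cKO and 2.58, 2.28 and 2.96 RPKM in cWT (change 0.96 ± 0.14). Ms4a7 averaged 118 ± 7.66 RPKM in cKO and 61.4 ± 4.54 RPKM in cWT (SD, n = 3 each). Beside Chil3 and Cx3cr1, Fcrls, an Fc receptor-like protein, was lower, averaging 3.65 ± 0.69 RPKM in cKO and 10.7 ± 1.44 RPKM in cWT. Apoe, the apolipoprotein, did not pass, with 522, 267 and 549 RPKM in cKO and 218, 241 and 310 RPKM in cWT; replicate 2 of cKO lay within the range of cWT, and without it the change was 1.07 (adjusted p = 0.00356 by limma). Among 20 tested genes of LPS and Toll-like receptors, 5 were higher, 1 lower and 14 did not pass. The complement list of 14 tested genes held 6 higher, 2 lower and 6 not passing. C1qa, C1qb and C1qc are among its 6 higher genes. C3, the central complement protein, was lower, averaging 30.2 ± 6.10 RPKM in cKO and 62.5 ± 3.52 RPKM in cWT.

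Monocyte genes were mainly lower. Of 19 tested, 2 were higher, 13 lower and 4 did not pass, with a median of -0.882 (log2). Ly6c2, the surface marker of classical monocytes, had 2.73, 4.82 and 3.59 RPKM in cKO, against 15.1, 18.6 and 15.3 RPKM in cWT (change -1.89 ± 0.15); Ly6c1, its near-identical neighbour, was below the filter, and the split of reads between them is uncertain. Spn, the sialoglycoprotein CD43, averaged 4.91 ± 0.39 RPKM in cKO and 18.2 ± 0.90 RPKM in cWT (SD, n = 3 each). Cd300e, one of the 2 that rose, stayed below 2 RPKM.

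Neutrophil granule genes fell together. Of 21 tested, 0 were higher, 20 lower and 1 did not pass, with a median of -1.607 (log2), and with the letter as a term 18 were lower. S100a8, a calcium-binding subunit of calprotectin, had 45.2, 63.9 and 54.7 RPKM in cKO, against 265, 323 and 231 RPKM in cWT (change -2.30 ± 0.16, adjusted p = 3.96e-05 by limma). Lcn2, the iron-binding lipocalin of neutrophil granules, averaged 11.2 ± 1.43 RPKM in cKO and 50.7 ± 6.48 RPKM in cWT, and Ltf, lactoferrin, 8.80 ± 0.35 RPKM in cKO and 37.3 ± 4.39 RPKM in cWT (SD, n = 3 each). Mpo, the myeloperoxidase of early granules, had 0.457, 1.26 and 0.697 RPKM in cKO and 5.97, 7.98 and 4.43 RPKM in cWT. In none of these genes did the groups overlap. The summed neutrophil markers, given with those of the other cell types, include S100a8, Ltf and Mpo and are not a separate result.

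Cell cycle genes were lower in the libraries labelled cKO. Of 42 tested, 0 were higher, 38 lower and 4 did not pass, with a median of -0.995 (log2), and 35 were lower in the fit with the letter as a term. Mki67, a protein of cycling cells, had 6.76, 6.81 and 4.91 RPKM in cKO, against 24.6, 24.2 and 15.5 RPKM in cWT (change -1.63 ± 0.18, adjusted p = 0.00039 by limma). Top2a, the topoisomerase of dividing cells, averaged 11.7 ± 1.80 RPKM in cKO and 31.3 ± 3.12 RPKM in cWT, and Ccnd2, cyclin D2, 2.5 ± 0.65 RPKM in cKO and 7.85 ± 0.77 RPKM in cWT (SD, n = 3 each). The groups did not overlap for these 3 genes. In the list of DNA methylation and Polycomb genes, 10 of 19 tested were lower, 1 was higher and 8 did not pass, beside 27.6% lower of all tested genes. Lower ones numbered 6 without replicate 3 of cKO or replicate 2 of cWT, and 5 after quantile scaling or with the letter as a term. Uhrf1, which guides maintenance methylation after replication, averaged 4.88 ± 0.45 RPKM in cKO and 13.4 ± 0.31 RPKM in cWT, and Dnmt1, the maintenance methyltransferase, 13.8 ± 1.10 RPKM in cKO and 21.8 ± 0.96 RPKM in cWT. Cbx7, a chromodomain protein of Polycomb complexes, was the member that rose (change 0.55 ± 0.07).

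Serine synthesis and one-carbon metabolism, with their amino acid stress genes, showed the same direction: of 18 tested genes 14 were lower and 4 did not pass, with a median of -0.703 (log2), and 14 were lower in the fit with the letter as a term. Phgdh, the first enzyme of serine synthesis, had 4.03, 5.11 and 4.06 RPKM in cKO, against 13.3, 11.1 and 11.6 RPKM in cWT (change -1.27 ± 0.10). Slc7a5, a transporter of large neutral amino acids, averaged 3.40 ± 0.56 RPKM in cKO and 9.61 ± 0.32 RPKM in cWT, and Chac1, an enzyme of glutathione breakdown, 1.54 ± 0.19 RPKM in cKO and 5.94 ± 0.45 RPKM in cWT (SD, n = 3 each). Of 25 tested glycolysis genes 2 were higher, 11 lower and 12 did not pass, beside 27.6% lower of all tested genes. The lower ones numbered 7 without replicate 2 of cWT, 5 after median centring, 6 with the letter as a term and 13 after quantile scaling. Pfkl, the liver-type phosphofructokinase, averaged 8.76 ± 0.39 RPKM in cKO and 14.2 ± 0.70 RPKM in cWT. Of 22 cholesterol synthesis genes 10 were lower and 12 did not pass. Lower ones numbered 6 without replicate 2 of cWT, 5 after median centring and 4 with the letter as a term. Of 49 oxidative phosphorylation genes 1 was higher and 48 did not pass, with a median of 0.177 (log2). Without replicate 1 of cKO 6 of them were higher, without replicate 3 of cWT 3 were, and without any other 1 library 0 were by limma; with 36 libraries 15 were higher, and with library weights 27.

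The remaining lists moved less. Their counts stand beside 8.39% higher and 27.6% lower of all tested genes, and the lower counts of the stress and inflammasome lists lie near that share. Among genes of lipid efflux and LXR targets, 1 of 16 was higher and 6 were lower (4 higher without replicate 2 of cKO), with Scd2, a desaturase, at 3.66 ± 0.48 RPKM in cKO and 10.8 ± 1.92 RPKM in cWT (SD, n = 3 each). Of 22 stress and immediate early genes 1 was higher and 6 were lower, with the heat shock protein gene Hsph1 at 7.74 ± 0.17 RPKM in cKO and 14.7 ± 1.08 RPKM in cWT. Of 32 genes of the actin ring, podosomes and integrins 3 were higher and 6 lower, with 0 to 2 higher and 3 to 9 lower when 1 library was left out, the fewest without replicate 2 of cWT and the most lower without replicate 1 of cKO. Of 26 chemokines and cytokines 6 were higher and 9 lower, with Csf1, which encodes M-CSF itself, at 14, 13 and 11.4 RPKM in cKO and 32.0, 19.7 and 25.0 RPKM in cWT. Inflammasome genes numbered 4 higher and 4 lower of 15, and iron handling genes 3 higher and 1 lower of 15 (6 higher without replicate 2 of cKO). Lists with few tested genes had 1 of 3 endothelial genes higher, 2 higher and 1 lower of 3 adipocyte genes, 2 higher and 2 lower of 5 dendritic cell genes, 1 higher and 2 lower of 3 lymphocyte genes, 1 of 1 mast cell and basophil gene higher and 1 of 1 erythroid and megakaryocyte gene higher. The 1 tested gene of the sex-linked list, Xist, did not pass.

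**Figure D3:**
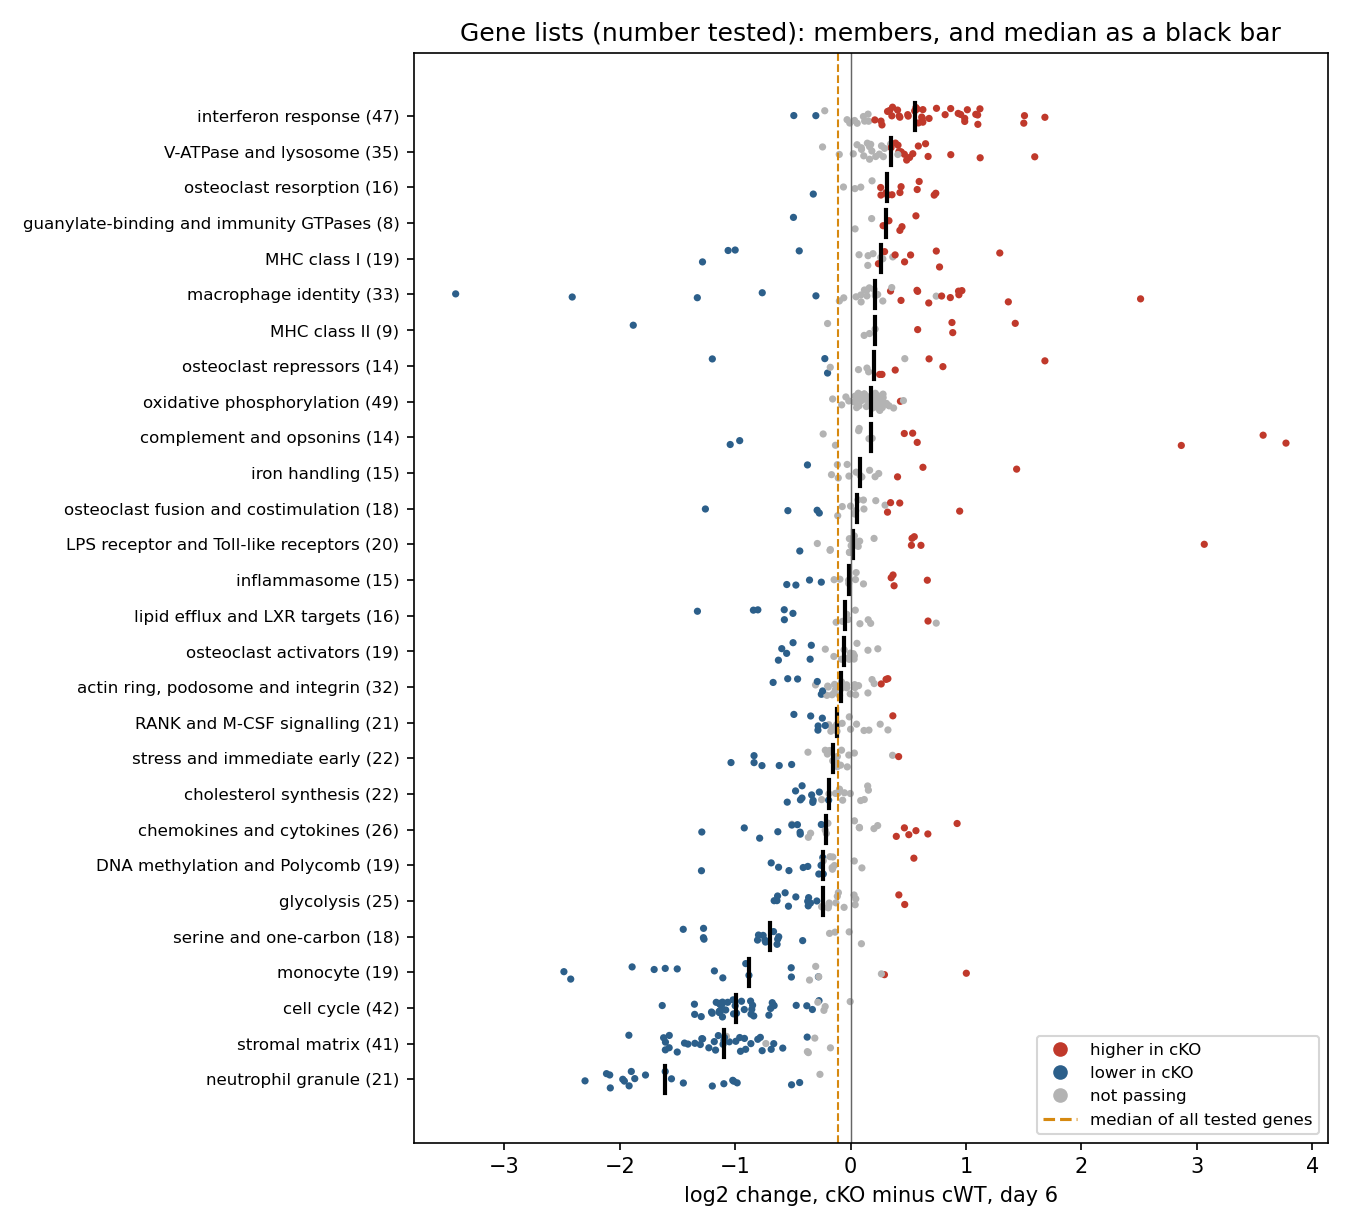
Log2 change (cKO minus cWT, log2(RPKM + 1) scale) of every tested member of each gene list with at least 8 tested members, coloured by limma call; black bars are list medians and the dashed line is the median of all tested genes, -0.114. The interferon response has the highest median, 0.555, and neutrophil granule genes have the lowest, -1.607.

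The summed markers of cell types share genes with the lists above, such as C1qa, S100a8, Ltf and Mpo, so they are not separate results. The summed RPKM of 9 osteoclast markers was 25400 to 26100 in cKO and 16000 to 18100 in cWT, with 8 higher, so both groups carried the osteoclast label's defining genes. Of 8 macrophage markers 4 were higher, namely Cd68, C1qa, C1qb and C1qc, while Adgre1, Csf1r, Mertk and Cd14 did not pass. The sum of the 8 was 1910 to 2270 RPKM in cKO and 1250 to 1320 RPKM in cWT. Of 8 neutrophil markers 7 were lower, and their sum was 146 to 201 RPKM in cKO and 694 to 902 RPKM in cWT; Ly6g, a defining surface marker, was below 1 RPKM in all 6 libraries. Of 12 stromal markers 8 were lower, and their sum was 159 to 223 RPKM in cKO and 389 to 519 RPKM in cWT. Lum was at or near 0 in all 6 libraries and Dcn below 1 RPKM. The part of such cells in the results was not tested, and in bulk RNA fewer cells of a type and less RNA per cell cannot be told apart.

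The wider list of stromal matrix genes had 0 higher, 35 lower and 6 not passing of 41 tested, with a median of -1.094 (log2). Col1a1, a chain of type I collagen, had 33.7, 24.2 and 11.7 RPKM in cKO, against 68.5, 71.3 and 57.2 RPKM in cWT (change -1.57 ± 0.31). The cKO libraries were spread but stayed below all cWT libraries. Col3a1, a chain of type III collagen, averaged 2.07 ± 0.996 RPKM in cKO and 10.3 ± 1.52 RPKM in cWT (SD, n = 3 each). With the letter as a term 18 members were lower, with a list median of -1.024, and Col1a1 was not among them (change -1.38, adjusted p = 0.095 by limma). Markers of the other cell types were low. B cell markers summed to 0.294 to 0.454 RPKM in cKO and 1.55 to 1.71 RPKM in cWT, T and NK cell markers to 2.24 to 3.89 RPKM in cKO and 4.73 to 5.87 RPKM in cWT, and endothelial markers to 1.88 to 1.98 RPKM in cKO and 1.95 to 2.22 RPKM in cWT. Mast cell and basophil markers summed to 0.307 to 0.927 RPKM in cKO and 0.828 to 1.53 RPKM in cWT. Dendritic cell markers summed to 21.6 to 24.9 RPKM in cKO and 26.3 to 29.2 RPKM in cWT, nearly all from Itgax, which macrophages and osteoclasts also express. Erythroid and megakaryocyte markers summed to 57.1 to 64.9 RPKM in cKO and 35.7 to 49.5 RPKM in cWT, nearly all from the platelet factor gene Pf4.

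**Figure D4:**
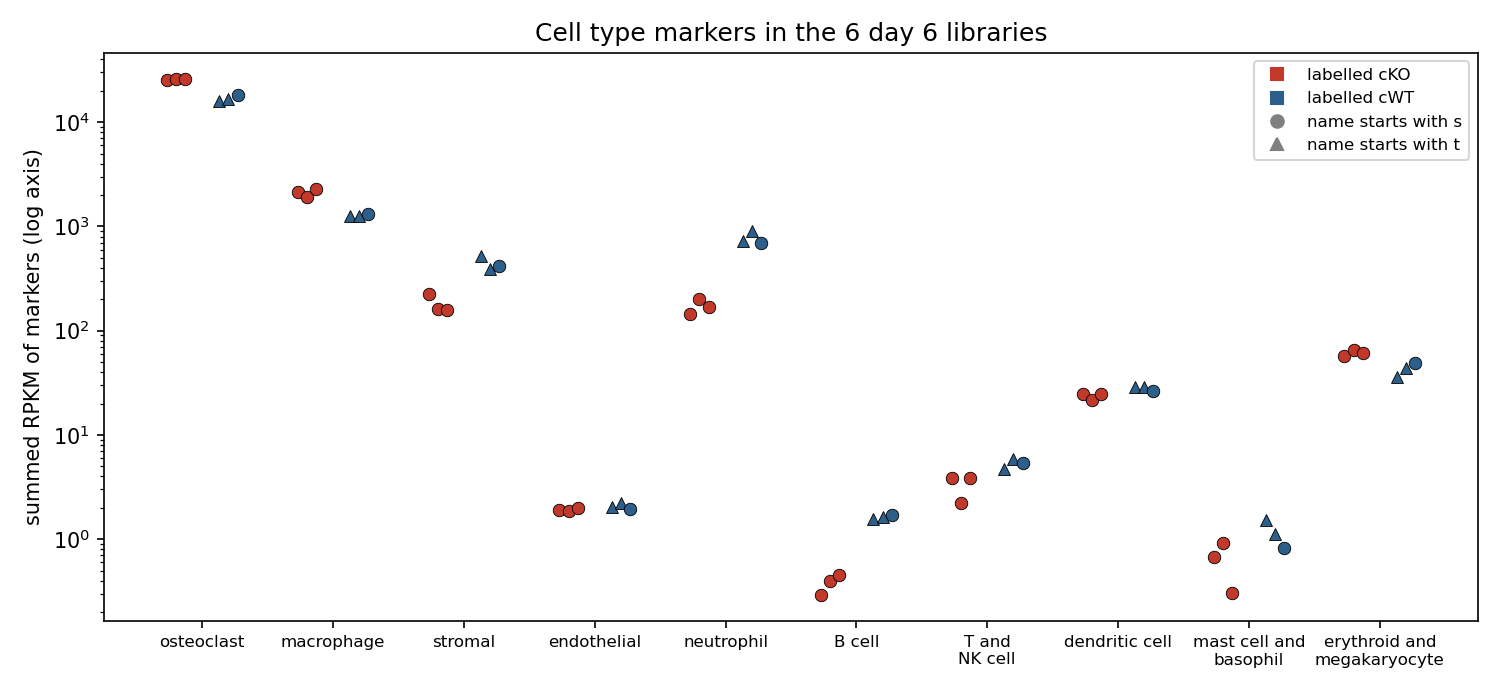
Summed RPKM of the marker genes of each cell type (log axis) in the 3 libraries labelled cKO (red, left) and the 3 labelled cWT (blue, right); circles and triangles mark library names that start with s and t. Osteoclast markers sum to at least 16000 RPKM in every library, and neutrophil sums are 146 to 201 in cKO and 694 to 902 in cWT.

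The same contrast on other days, which shares no library with day 6, ran against these directions for the marked genes. C1qa averaged 2.34 RPKM in cKO and 183 RPKM in cWT at day 0, and 8.30 RPKM in cKO and 34.6 RPKM in cWT at day 3. Ly86 averaged 0.676 RPKM in cKO and 94.4 RPKM in cWT at day 0, and 0.446 RPKM in cKO and 4.36 RPKM in cWT at day 3. Chil3 averaged 1577 RPKM in cKO and 88.4 RPKM in cWT at day 0, and 739 RPKM in cKO and 37.1 RPKM in cWT at day 3. The difference between the day 6 and the day 3 change was 5.72 ± 0.30 for C1qa, 4.93 ± 0.19 for Ly86, -7.70 ± 0.15 for Chil3 and -4.37 ± 0.19 for Irf8 (log2, with limma standard errors over 18 libraries of the c set). These genes were already known to run opposite to the earlier days when they were picked, so the differences are a description with no test. Followed along the labels, Chil3 thus averaged 1577, 739 and 4.14 RPKM in cKO on days 0, 3 and 6, and 88.4, 37.1 and 53.8 RPKM in cWT.

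Across all genes the day 6 change correlated with the day 0 change at r = -0.605 and with the day 3 change at r = -0.048 (Spearman rho = 0.113 for day 3; 10812 genes, which share libraries and are not independent replicates). In the contrast of day 0, 33.8% of the tested genes were called higher and 31.0% lower in cKO, and in that of day 3, 30.8% higher and 45.0% lower. Of the 907 genes higher at day 6, 461 (50.8%) were higher and 264 (29.1%) lower at day 3, and of the 2980 lower genes 1586 (53.2%) were lower and 809 (27.1%) higher at day 3. As shares of the day 3 lists these are 13.9%, 5.4%, 32.6% and 24.3%, in that order. More of the day 6 calls thus had the same direction at day 3 than the opposite one. Against day 0, 629 (69.3%) of the higher genes were lower and 1921 (64.5%) of the lower genes were higher, which are 18.8% and 52.6% of the day 0 lists. Of 134 genes at least 2-fold higher in cKO on both earlier days, 112 (83.6%) were lower at day 6, 4 were higher and 18 did not pass, with a median of -0.91 (log2). Of 62 genes at least 2-fold lower on both earlier days, 53 (85.5%) were higher, 1 was lower and 8 did not pass, with a median of 0.93. For reference, 27.6% of all tested genes were lower and 8.39% higher at day 6. The test of the difference itself called 3733 genes (34.5%) with a higher and 3493 (32.3%) with a lower change at day 6 than at day 3. Against day 0 it called 2822 (26.1%) higher and 4570 (42.3%) lower.

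The gKO and gWT osteoclasts of day 6 give the same comparison in another set. Irf8 averaged 4.97 RPKM in gKO and 5.58 RPKM in gWT, a change of -0.13 ± 0.15 that did not pass (adjusted p = 0.514 by limma). C1qa averaged 1.37 RPKM in gKO and 110 RPKM in gWT, and Ly86 0.194 RPKM in gKO and 8.58 RPKM in gWT. Chil3 averaged 90.0 RPKM in gKO and 12.5 RPKM in gWT. In the c set at day 6, C1qa averaged 104 RPKM in cKO and 6.70 RPKM in cWT, and Ly86 8.82 RPKM in cKO and 0.163 RPKM in cWT. Levels were not alike across the sets for every large rise. Folr2 averaged 12.95 RPKM in cKO and 10.03 RPKM in gWT. Lad1, however, averaged 11.03 RPKM in cKO and 0.0502 RPKM in gWT, and Npl 9.84 RPKM in cKO and 0.828 RPKM in gWT. Whether labels are exchanged was not tested. The c change minus the g change was 9.33 ± 0.29 for C1qa, 6.08 ± 0.19 for Ly86 and -6.18 ± 0.17 for Chil3 (log2, with limma standard errors over 12 libraries, again as a description).

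In the g set 21.7% of the tested genes were called higher and 22.2% lower in gKO. Over all genes the c and g changes at day 6 correlated at r = -0.58. Of 75 genes at least 2-fold higher in gKO, 64 (85.3%) were lower and 3 higher in the libraries labelled cKO. Of 195 genes at least 2-fold lower in gKO, 153 (78.5%) were higher and 5 lower. The interaction called 2146 genes (19.8%) with a higher and 3865 (35.7%) with a lower change in the c set. The interferon gene Oasl2 averaged 11.4 RPKM in cKO and 3.34 RPKM in cWT, against 0.819 RPKM in gKO and 13.2 RPKM in gWT. The neutrophil gene S100a8 averaged 54.6 RPKM in cKO and 273 RPKM in cWT, against 295 RPKM in gKO and 33.1 RPKM in gWT. The osteoclast gene Ctsk did not follow this pattern on the values as deposited. Its c change turned to -0.192 after quantile scaling, and with the letter as a term it was 0.310 and not called. Ctsk averaged 8100 RPKM in cKO and 6033 RPKM in cWT, and its change of 0.43 stood beside one of 0.44 in the g set (difference -0.01, adjusted p = 0.94 by limma).

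**Figure D5:**
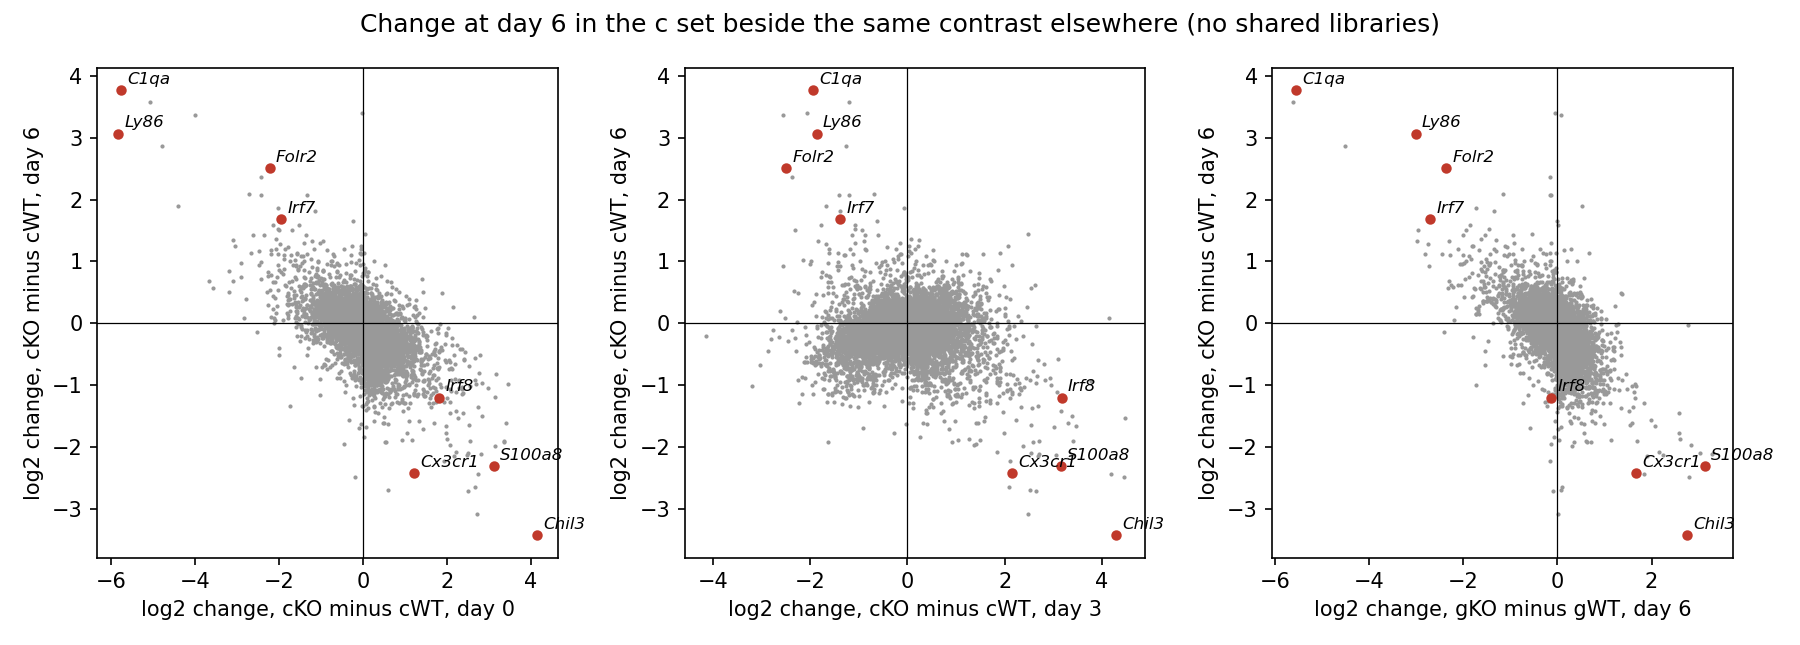
Log2 change (cKO minus cWT at day 6, log2(RPKM + 1) scale) of each tested gene against its change at day 0, at day 3 and in gKO against gWT at day 6; 8 genes are marked. C1qa, Ly86, Folr2 and Irf7 lie at the upper left of every panel and Chil3, Cx3cr1 and S100a8 at the lower right, while r is -0.605 for day 0, -0.048 for day 3 and -0.58 for the g set.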

How the data were processed

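RNA was sequenced in 36 libraries, of which 6 (3 cKO, 3 cWT, day 6) carry the comparison. Per the submitters' processing notes, the tools were bcl2fastq 2.17.1, CASAVA 1.8.4, deepTools, Partek and TopHat2 2.1.0. Per the file headers, TopHat mapped the reads to mm9 and Partek gave the RPKM values. For strand and multi-mapping reads, the handling is not stated. The sample sheet that the authors deposited gives counts of alignments per library, 35233080 to 92548145 for the 6; read counts per gene were not used here, so the counting error of single values is unknown. The authors' deposited table for day 6 gives log2 group means, which matched means of log2(RPKM + 0.1) within 5e-05, and the ratio between groups.

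Values were transformed to log2(RPKM + 1), which understates changes of low genes, and tested with limma 3.58.1 in R 4.3.3 (trend and robust moderation, group only, Benjamini-Hochberg adjustment, call under 0.05), checked first on simulated data. Differences between days and sets are interactions over 18 and 12 libraries. Tables and figures were made in Python 3.11.15 (matplotlib 3.10.9, numpy 2.4.6, pandas 2.3.3). Promoters are from RefSeq (GRCm38.p6).

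Members and the 35 gene lists (793 genes) were chosen with earlier results of these data known. Genes to name were picked by rule. They were Irf8, the C1q genes, Ly86 and Chil3, and up to 6 members per list by size of change. Also picked were the 12 largest rises and falls that averaged 5 RPKM or more in the higher group without overlap. To these came the 10 largest with an SD under 0.25 in both groups. Of the ranked genes, Ifi202b (change 1.9, log2), S100a9 (-2.12), Camp (-2.08) and Wfdc21 (-2.13) are not described above. Some picked list members are not described either. The ranking skipped predicted, small RNA, mitochondrial and sex-linked genes. Car2, Cd300e, Ifi207, Ifit3b, Oas1a, Tnfrsf11a, Xaf1, Ly6c1 and the genes of the last section were named after their values were seen.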

Additional observations from a re-analysis of the deposited data

Results flagged for a closer look

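The change between libraries labelled cKO and cWT at day 6 differed from the change under the same contrast on the other days and in the g set for each of the 6 genes below (n = 3 libraries per group). That these genes run opposite to days 0 and 3 was known when they were picked, so the differences are a description and carry no p-value. For Irf8 the day 6 change minus the day 3 change was -4.37 ± 0.19 (log2, limma SE), and the day 6 change minus the day 0 change was -3.01 ± 0.19. Its c change minus its g change at day 6 was -1.07 ± 0.22, the smallest difference among the 6 genes.

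For the complement genes, the day 6 minus day 3 difference was 5.72 for C1qa, 4.77 for C1qb and 4.13 for C1qc. The day 6 minus day 0 difference was 9.55 for C1qa, 8.66 for C1qb and 7.66 for C1qc. The c minus g difference was 9.33 for C1qa, 9.19 for C1qb and 7.38 for C1qc (log2).

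For Ly86, the partner of RP105, the differences were 4.93 against day 3, 8.90 against day 0 and 6.08 against the g set. For Chil3, the chitinase-like protein, they were -7.70 against day 3, -7.56 against day 0 and -6.18 against the g set (log2). On days 0 and 3 all libraries labelled cKO begin with t and all labelled cWT with s, so letter and genotype cannot be told apart there.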

How the results depend on the processing

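As deposited, 907 genes were higher and 2980 lower in the libraries labelled cKO. Higher and lower genes numbered 1474 and 4500 with the spread estimated from 36 libraries, 594 and 1837 at an RPKM of at least 5, 2099 and 5106 with library weights, 1774 and 1383 after median centring, and 1722 and 1584 after quantile scaling. With the name letter as a term they numbered 338 and 1159, and in letter s libraries alone, an alternative chosen after seeing the data, 231 and 891. Leaving out 1 library gave 532 to 930 higher and 1828 to 3009 lower genes. The strict RPKM minimum tests fewer genes and the letter s fit sets 3 libraries of cKO against 1 of cWT, whose spread is assumed to equal that of cKO; for the other settings the cause was not tested.

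Ctsk turned to -0.192 after quantile scaling (adjusted p = 0.0369 by limma). Among genes that did not pass, Tnfrsf11a turned to 0.017 after median centring (adjusted p = 0.867), and Xist to 0.10 with the letter as a term or in letter s libraries alone. Irf8 kept its direction and its call under every setting run. Of 91 genes named, 86 kept their direction and side of the threshold after quantile scaling, 78 with the letter term and 72 in letter s libraries alone.

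With the replicate number as a block, 1192 genes were higher and 3819 lower. Same-numbered libraries correlated in their deviations at 0.459, 0.035 and 0.495, and the first and last were the highest of any pair. Replicate 2 of cKO correlated best with replicate 3 of cWT, at 0.174. The labels do not say that a number pairs samples, so the numbers were not treated as pairs.

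With 3 libraries per group and no read counts per gene used here, the depth behind single RPKM values is unknown, and levels near 0 carry an unknown counting error.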

Other observations

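The genes in this section were chosen after their values were seen. A few were close to off in 1 genotype of the c set, with the opposite order at day 6. H2-Q2, a class I MHC gene, averaged 3.43 RPKM in cKO and 0.157 RPKM in cWT at day 0, 4.48 RPKM in cKO and 0.261 RPKM in cWT at day 3, and 0.292 RPKM in cKO and 5.08 RPKM in cWT at day 6. Both g groups were low for it at day 6, with 0.0854 RPKM in gKO and 0.206 RPKM in gWT. H2-Q1, its neighbour in the Q region, averaged 2.09 RPKM in cKO and 0.0317 RPKM in cWT at day 3, and 0.0681 RPKM in cKO and 2.21 RPKM in cWT at day 6. The predicted gene Gm8615 averaged 0.151 RPKM in cKO and 5.76 RPKM in cWT at day 3, against 10.4 RPKM in cKO and 0.101 RPKM in cWT at day 6. Lad1, ladinin, averaged 0.351 RPKM in cKO and 4.65 RPKM in cWT at day 3, and 11 RPKM in cKO and 0.136 RPKM in cWT at day 6. It was at 0.0128 RPKM in gKO and 0.0502 RPKM in gWT at day 6.

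Among genes with large changes on both earlier days, 5 were called in the same direction at day 6. The order of those that did not pass at day 6 was not counted. Of the 134 genes at least 2-fold higher in cKO on days 0 and 3, Mmp9, Rnd1, Tm4sf19 and 4930523C07Rik were also higher at day 6. None of these 4 passed at day 6 with the letter as a term (adjusted p = 0.0544, 0.184, 0.0674 and 0.11 by limma, in that order). The change of Mmp9 after quantile scaling was 0.045 (adjusted p = 0.586). Rnd1 did not pass without replicate 3 of cKO or replicate 1 or 2 of cWT (adjusted p = 0.0512 to 0.0577 by limma). The predicted gene 4930523C07Rik did not pass without replicate 1 or 2 of cKO or any 1 library of cWT (adjusted p = 0.0561 to 0.0782 by limma). Tm4sf19, a tetraspanin-like membrane protein, averaged 2.78, 74.3 and 103 RPKM in cKO on days 0, 3 and 6, and 0.769, 17.3 and 77.5 RPKM in cWT. Rnd1 averaged 3.97, 12.1 and 12.6 RPKM in cKO on those days and 1.33, 4.86 and 9.97 RPKM in cWT. Mmp9 averaged 97.2, 5923 and 7657 RPKM in cKO and 36.1, 1846 and 4635 RPKM in cWT. Of the 62 genes at least 2-fold lower on both earlier days, Hist1h2ag, a histone H2A gene with near-identical relatives, was also lower at day 6, with 0.230 RPKM in cKO and 1.76 RPKM in cWT.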
